A study of Oryza sativa with 10 samples.

Results

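Protein disulfide isomerases are enzymes of the endoplasmic reticulum that form, break and rearrange the disulfide bonds of proteins entering the secretory pathway, using active sites in domains with the thioredoxin fold. In rice seed they are known for their part in making storage protein. Mutants of the esp2 locus, which encodes OsPDIL1-1, accumulate the unprocessed precursor of the glutelins, and OsPDIL2-3 has been placed at the surface of the prolamin-containing protein bodies that bud from the endoplasmic reticulum. The transcripts of 3 of these genes were followed here across 5 rice tissues: OsPDIL1-1 (LOC4350002), OsPDIL1-4 (LOC4327971) and OsPDIL2-3 (LOC4347226). They were chosen by name, with earlier results of these data known. The symbol or a synonym in the RefSeq gene table identified them, and each had 1 probe set. They are 3 of 12 genes that the same table names as protein disulfide isomerases, of which 11 had a probe set, and 3 of 17905 genes with a probe set of their own on the array.

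The tissues came from the cultivar Zhonghua 11 and were endosperm and embryo at 6 days after anthesis, whole seedlings aged 10 days, and leaf and root of seedlings aged 7 days. Each tissue had 2 biological repeats with 1 array each, 10 arrays in all, so p-values measure the spread between 2 plant samples per tissue. Signals are the deposited intensities of an Affymetrix rice array, scaled to a trimmed mean of 500 on each array. They have no absolute unit, so the levels of different probe sets were not set against each other. A call required at least a 2-fold difference and an adjusted p under 0.05 from limma with Benjamini-Hochberg adjustment over all 30014 probe sets tested. Because these are bulk tissues, fewer cells that express a gene and less RNA per cell cannot be told apart.

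Endosperm, embryo and root markers were highest in their own tissue, while the sum of the green tissue genes was also high on some endosperm and root arrays. The summed signal of 4 endosperm genes was 177863 and 136080 in endosperm, 18458.5 and 23113.2 in embryo, and at most 69.2 in the other tissues. The 3 embryo markers summed to 908 and 1340 in endosperm and to 1546 and 306 in root, against 38050.8 and 30299.3 in embryo. Root markers summed to 27979.5 and 27570.9 in root, 11676.9 and 5260 in whole seedling, and at most 1021 in the other tissues. The repeats of a tissue were not equally close. The log2 signals of the 2 root arrays correlated at 0.905 and those of the 2 endosperm arrays at 0.926, against 0.972 to 0.983 in the other tissues. Green tissue genes summed to 3675 and 25460.4 in the endosperm arrays and to 17499.2 and 5712 in the root arrays, against 55214.6 and 47537.6 in leaf. Most of the endosperm and root sums came from CAB2R, with means of 13667 and 9744, against 19701 in leaf. LFNR1 averaged 523 in endosperm and 481 in root, against 10925 in leaf. OsrcaA1 averaged 377 and 1381, against 20751 in leaf. The ratio of the 3′ to the 5′ probe set of glyceraldehyde-3-phosphate dehydrogenase was 2.04 and 24.0 on the root arrays, 4.71 and 5.28 in endosperm, 1.82 and 1.65 in embryo, 11.3 and 9.45 in seedling, and 26.3 and 29.1 in leaf. For the dap and thr control transcripts the same kind of ratio was 143 and 945 on endosperm replicate 1, where no other array exceeded 7.23 and 8.85. Without endosperm replicate 1 the isomerases kept every call between endosperm and another tissue but one, that of OsPDIL2-3 over root. The part of the other differences in the results was not tested.

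All 3 genes had their highest signals in endosperm, with both endosperm arrays above every array of the other tissues. The share of all probe sets with this pattern is not given here, so the pattern does not set the genes apart. Scaled to the hybridization spike-ins, which lowered the median of all probe sets in endosperm minus embryo to -0.66 on the log2 scale from 0.02, the endosperm mean stayed highest for OsPDIL1-4 only: OsPDIL1-1 was then at -0.18 in endosperm minus embryo and OsPDIL2-3 at -0.22 in endosperm minus seedling, neither called. Below endosperm the orders differed. The next highest mean was in embryo for OsPDIL1-1 and OsPDIL1-4 and in seedling for OsPDIL2-3. All 3 passed the F-test over the 5 tissues, with adjusted p of 3.87e-05 for OsPDIL1-1, 2.61e-06 for OsPDIL1-4 and 0.000498 for OsPDIL2-3. That test called 73.2% of all probe sets, so passing it does not set the genes apart.

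**Figure D1:**
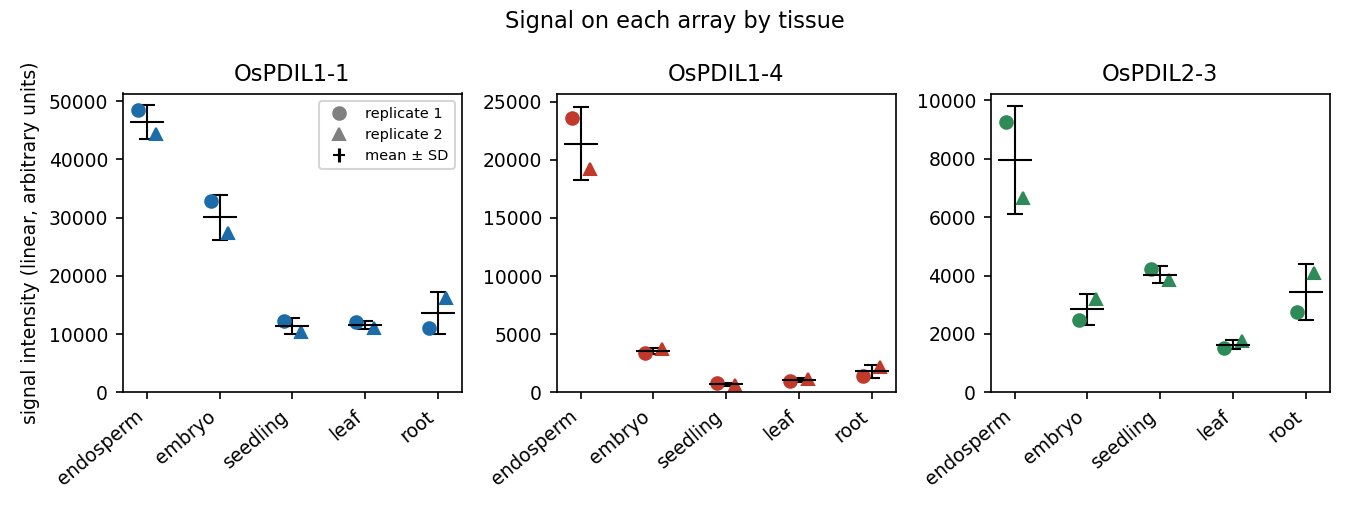
Signal of OsPDIL1-1, OsPDIL1-4 and OsPDIL2-3 on each of the 10 arrays (points, linear axis, arbitrary units) with the mean ± SD of the 2 arrays of each tissue. In each panel both endosperm arrays lie above every other array, and the spacing of the remaining tissues differs between the genes.

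OsPDIL1-1, the isomerase missing in esp2 mutants, had a signal of 48458.6 and 44289.3 in endosperm and of 32817.9 and 27323.8 in embryo. It had 12320.9 and 10371.7 in seedling, 12104.3 and 11067.9 in leaf, and 11101.6 and 16131.2 in root. The levels thus fell into 2 seed tissues above and 3 vegetative tissues below, with no overlap between the sets, and the 3 vegetative tissues overlapped one another. Endosperm markers were also higher in embryo, with sums of 18458.5 and 23113.2 against at most 69.2 in the vegetative tissues. Their part in the embryo levels of the 3 isomerases was not tested. Endosperm exceeded seedling by 2.03 ± 0.21 (log2 difference ± SE, here and below; adjusted p = 3.07e-05), leaf by 1.999 ± 0.21 (adjusted p = 3.19e-05) and root by 1.79 ± 0.21 (adjusted p = 7.57e-05). Embryo exceeded the same tissues by 1.40, 1.37 and 1.16 ± 0.21 (adjusted p = 0.000416, 0.000474 and 0.00152). The difference between endosperm and embryo was 0.63 ± 0.21 with an adjusted p of 0.0347, which is under 2-fold and was not called. None of the 3 differences among seedling, leaf and root was called (-0.24 to -0.03, adjusted p 0.454 to 0.972).

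The size of these differences for OsPDIL1-1 depended on how arrays were scaled. Its signals are near the top of the range, and quantile scaling gave differences of 0.89 to 0.98 between endosperm and the vegetative tissues and of 0.82 to 0.91 for embryo, all with adjusted p under 0.05 but none of them 2-fold. Scaling to the hybridization spike-ins left 1 of its 6 calls, that of embryo over leaf. All of these differences stayed positive. Embryo minus root was also under 2-fold without root replicate 1 (0.89).

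OsPDIL1-4 showed the steepest profile of the 3. Its signal was 23583.4 and 19167.1 in endosperm, 3372 and 3745 in embryo, and 775 and 609 in seedling. It was 947 and 1183 in leaf and 1410 and 2207 in root. The 5 tissues did not overlap, in the order endosperm, embryo, root, leaf, seedling. Endosperm exceeded embryo by 2.58 ± 0.28 (adjusted p = 8.67e-05), seedling by 4.92 (adjusted p = 9.57e-07), leaf by 4.31 (adjusted p = 1.95e-06) and root by 3.58 (adjusted p = 6.19e-06), with the same SE. In these comparisons its difference lay above that of 96.4%, 98.7%, 98.1% and 97.5% of all probe sets tested. In the same order the shares were 69.6%, 91.5%, 89.9% and 90.6% for OsPDIL1-1. They were 87.7%, 76.9%, 92.0% and 83.5% for OsPDIL2-3. For OsPDIL1-4, embryo exceeded seedling by 2.34 (adjusted p = 0.000113), leaf by 1.73 (adjusted p = 0.000697) and root by 1.004 ± 0.28 (adjusted p = 0.0169). The last of these is at the 2-fold limit and lost its call under 4 other settings of pseudocount or scaling and when root replicate 1 or either embryo replicate was left out (0.68 to 1.08).

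Among the vegetative tissues OsPDIL1-4 was lower in seedling than in root by 1.34 ± 0.28 on the log2 scale (seedling minus root -1.34, adjusted p = 0.00831). This was not called without seedling replicate 2 (-1.17, adjusted p = 0.0897) or with spike-in scaling (-1.17, adjusted p = 0.111). The neighbours in its order below embryo were not separated by a call. Leaf minus root was -0.73 (adjusted p = 0.0929), or -1.05 with an adjusted p of 0.0267 without root replicate 1, and seedling minus leaf was -0.61 (adjusted p = 0.359).

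OsPDIL2-3, the isomerase of the prolamin body surface, varied less. Its signal was 9275 and 6653 in endosperm, 2470 and 3207 in embryo, and 4234 and 3837 in seedling. It was 1531 and 1742 in leaf and 2755 and 4101 in root. Endosperm was clear of the other tissues and leaf was clear below them, while root overlapped both embryo and seedling. Endosperm exceeded leaf by 2.26 ± 0.27 (adjusted p = 8.27e-05), embryo by 1.48 ± 0.27 (adjusted p = 0.0019) and root by 1.22 ± 0.27 (adjusted p = 0.00425). It exceeded seedling by 0.96 ± 0.27 with an adjusted p of 0.0128, just under 2-fold, and was called without endosperm replicate 2 (1.20) or seedling replicate 1 (1.03). The endosperm to root difference was not called without endosperm replicate 1 (0.98), without root replicate 1 (0.94), or under quantile (0.91), median (0.99) or spike-in scaling (0.21). The difference from embryo was not called under spike-in scaling (0.66).

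Leaf held the lowest OsPDIL2-3 signal. Leaf minus root was -1.03 ± 0.27 (adjusted p = 0.0223) and seedling minus leaf was 1.29 ± 0.27 (adjusted p = 0.0356). Leaving out either leaf replicate ended both calls, with leaf minus root at -0.94 and -1.13 and seedling minus leaf at 1.20 and 1.39. Leaf minus root was also not called without root replicate 2 (-0.75), nor seedling minus leaf without either seedling replicate (1.22 and 1.37) or without either embryo replicate (1.29, adjusted p = 0.0637 and 0.0645). Median and spike-in scaling ended both calls as well. Embryo did not differ by a call from leaf (0.78, adjusted p = 0.039, under 2-fold), root (-0.25, adjusted p = 0.502) or seedling (-0.52, adjusted p = 0.146). The probe set carries the x suffix, which marks designs that may hybridize with transcripts of other genes, and its part in these values was not tested.

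Read over the 3 genes together, the calls stood against a wide background of tissue differences. In endosperm minus embryo 2 of the 3 were called higher, where 16.3% of all probe sets were higher and 20.1% lower. All 3 were higher in endosperm than in leaf (21.8% of all higher, 30.9% lower) and than in root (17.6% and 26.4%), and 2 were higher than in seedling (19.8% and 31.5%). Embryo held 2 of the 3 higher than leaf (18.3% of all higher, 23.5% lower), root (15.4% and 18.9%) and seedling (17.7% and 25.1%). In leaf minus root 1 was lower (10.9% of all higher, 8.87% lower), in seedling minus leaf 1 was higher (1.97% and 0.736%), and in seedling minus root 1 was lower (11.1% and 7.9%).

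The 3 genes differed alike between the 2 root arrays. The signal of replicate 1 over replicate 2 in root was 0.688 for OsPDIL1-1, 0.639 for OsPDIL1-4 and 0.672 for OsPDIL2-3, where the median over all tested probe sets was 0.956. In endosperm the ratios were 1.09, 1.23 and 1.39 against a median of 0.852. Regardless of direction, the median fold between the 2 arrays over all tested probe sets was 1.49 in root and 1.47 in endosperm. The size of these differences is thus not unusual. The root arrays also differed in the glyceraldehyde-3-phosphate dehydrogenase ratio given above, and its part was not tested.

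Whether the genes differed in tissue pattern was tested by subtracting the log2 signal of one gene from that of every probe set on the same array, so that a scaling factor of the array cancels. Quantile scaling is no such factor and does not cancel. OsPDIL1-4 rose more than OsPDIL1-1 in endosperm against every other tissue: by 1.95 ± 0.28 relative to embryo (adjusted p = 0.000319), 2.89 relative to seedling (adjusted p = 5.06e-06), 2.31 relative to leaf (adjusted p = 2.30e-05) and 1.79 relative to root (adjusted p = 0.000182). Between embryo and leaf, and between embryo and root, the 2 genes were not separated (0.36 and -0.16, adjusted p = 0.272 and 0.642). In embryo minus seedling the difference was 0.94 (adjusted p = 0.0116), under 2-fold. In seedling minus root OsPDIL1-4 was lower than OsPDIL1-1 by a further 1.10 on the log2 scale (-1.10, adjusted p = 0.0215). The remaining differences, in leaf minus root and seedling minus leaf, were -0.52 and -0.58 (adjusted p = 0.24 and 0.482). OsPDIL1-4 and OsPDIL1-1 therefore differed by a call in 5 of the 10 tissue comparisons. OsPDIL1-1 signals are among the highest on the array, and its own endosperm differences were smaller under quantile scaling, as given above. Under quantile scaling the 4 endosperm differences between the genes were 1.998 relative to embryo, 3.58 to seedling, 3.01 to leaf and 2.15 to root, and embryo minus seedling (1.59) and embryo minus leaf (1.007) were called too.

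**Figure D2:**
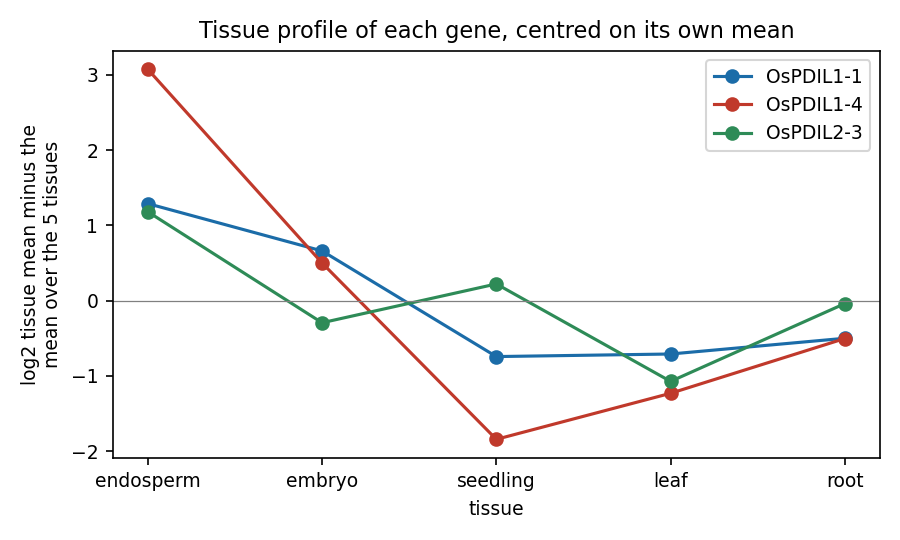
Tissue profile of each gene as the log2 tissue mean minus the mean over the 5 tissues (points joined by lines for reading only). OsPDIL1-4 has the widest span, OsPDIL1-1 steps down between embryo and seedling, and OsPDIL2-3 has its low point in leaf.

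OsPDIL2-3 differed from OsPDIL1-1 in comparisons with embryo and with seedling. Embryo minus seedling was lower for OsPDIL2-3 than for OsPDIL1-1 by a difference of -1.92 ± 0.28 (adjusted p = 0.000179), and embryo minus root by -1.42 (adjusted p = 0.00176). Endosperm minus seedling was likewise smaller for OsPDIL2-3 (-1.07, adjusted p = 0.00479), and seedling minus leaf was larger (1.33, adjusted p = 0.0426). These were the 4 of 10 comparisons called. Under quantile scaling endosperm minus seedling was not called (-0.45, adjusted p = 0.123), while endosperm minus embryo, endosperm minus leaf and leaf minus root were (1.14, 1.18 and -1.16). Endosperm minus embryo differed by 0.85 with an adjusted p of 0.0354, under 2-fold. The other 5 did not pass: endosperm minus leaf 0.26 and minus root -0.57, embryo minus leaf -0.59, leaf minus root -0.83 and seedling minus root 0.50 (adjusted p 0.0713 to 0.422).

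OsPDIL2-3 and OsPDIL1-4 differed in 8 of the 10 comparisons. The 4 endosperm differences of OsPDIL2-3 were smaller, by -1.10 ± 0.28 relative to embryo (adjusted p = 0.00307), -3.96 relative to seedling (adjusted p = 4.96e-08), -2.05 relative to leaf (adjusted p = 1.54e-05) and -2.36 relative to root (adjusted p = 6.26e-06). Embryo minus seedling differed by -2.86 and embryo minus root by -1.26 (adjusted p = 4.67e-06 and 0.00331). Seedling minus leaf differed by 1.91 and seedling minus root by 1.60 (adjusted p = 0.0032 and 0.000971), while embryo minus leaf (-0.95, adjusted p = 0.00929) and leaf minus root (-0.31, adjusted p = 0.438) were not called. Under quantile scaling endosperm minus embryo was not called (-0.86).

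These tests have a background of their own, because a fixed gene that varies between tissues makes most other probe sets differ from it. Relative to OsPDIL1-1, the probe sets called were 37.2% in endosperm minus embryo, 78.1% in endosperm minus seedling, 75.6% in endosperm minus leaf and 74.2% in endosperm minus root. The shares were 63.6% in embryo minus seedling, 61.7% in embryo minus leaf and 54.3% in embryo minus root, and 1.81%, 17% and 16.8% in seedling minus leaf, seedling minus root and leaf minus root. Relative to OsPDIL1-4 they were 85.6%, 98.2%, 96.7% and 95.2% for endosperm minus embryo, seedling, leaf and root, 82.9%, 68.9% and 47% for embryo minus seedling, leaf and root, and 4.69%, 55.6% and 26.6% for the vegetative comparisons in the order above. A call here therefore tells that 2 genes differ, not that either is unusual.

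Measured as the root mean square difference of centred log2 profiles over the 5 tissues, OsPDIL2-3 and OsPDIL1-1 were the closest pair of the 3 at 0.663. OsPDIL1-4 lay at 0.969 from OsPDIL1-1 and at 1.32 from OsPDIL2-3. Among genes with a readable symbol, the glutaredoxin gene GRXS6 was nearest to OsPDIL1-1 at 0.0728. GRXS6 averaged 6357 in endosperm, 4216 in embryo, 1552 in seedling, 1471 in leaf and 1631 in root. It was followed by OsC3H14 (0.116), the hexokinase gene HXK2 (0.127), the acyl-CoA-binding protein gene ACBP4 (0.142) and RSS1 (0.143).

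The genes nearest to OsPDIL1-4 were less close: GT7 at 0.291, the protein phosphatase 2C genes OsPP2C27 at 0.356 and OsPP2C31 at 0.434, DMC1 at 0.462 and the chitinase-like Chib3H-h at 0.463. GT7 averaged 15293.6 in endosperm and 1500 in embryo, against 437 to 903 in the vegetative tissues. For OsPDIL2-3 they were OsWNK6 at 0.217, the beta-tubulin genes OSTB-16 at 0.248 and RTUB-2 at 0.249, the superoxide dismutase gene SODCC.2 at 0.253 and the ornithine aminotransferase gene OAT at 0.255. No isomerase and no thioredoxin was among these 15 genes. With 5 tissue means per profile, a close profile is a description only.

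The rest of the family shared the endosperm maximum in part. At the scaling used, OsPDIL5-1, OsPDIL1-5 and OsPDIL5-2 also had their highest mean in endosperm, though none was called over embryo. The remaining family genes had their highest mean in another tissue. Of 11 family genes tested, 2 were higher in endosperm than in embryo (OsPDIL1-4 and OsPDIL2-3), 2 were lower and 7 were not called. The median log2 difference was 0.33, against 0.02 over all probe sets. Among all probe sets 16.3% were higher and 20.1% lower in this comparison, so the family count lies near the background. With spike-in scaling 1 was higher and 4 were lower. OsPDIL1-3 had a mean signal of 109 ± 37.5 in endosperm and 497 ± 111 in embryo (SD, n = 2 each), a difference of -2.05 ± 0.37 (adjusted p = 0.00179). OsPDIL1-2 averaged 10.2 ± 5.2 in endosperm and 101 ± 40.5 in embryo, a difference of -2.13 ± 0.50 (adjusted p = 0.00737), and because its endosperm signal is below the level of 100 used to select probe sets, this difference depends on the pseudocount of 16.

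Against the vegetative tissues the balance depended on the scaling. In endosperm minus leaf 5 of 11 were higher, the 3 genes followed here with OsPDIL1-5 (1.19) and OsPDIL5-1 (1.09), and OsPDIL1-2 (-2.88) and OsPDIL5-4 (-1.07) were lower, beside 21.8% of all probe sets higher and 30.9% lower. In endosperm minus seedling 4 were higher, including OsPDIL1-5 (1.73) and OsPDIL5-1 (1.30), and OsPDIL1-2 was lower (-2.02), beside 19.8% and 31.5% of all. OsPDIL5-1, whose barley counterpart is a susceptibility factor for bymoviruses, averaged 7486 in endosperm, 5964 in embryo, 3026 in seedling, 3481 in leaf and 4831 in root. In endosperm minus root 3 were higher, all of them genes followed here, and 3 were lower: OsPDIL2-2 (-1.44), OsPDIL1-3 (-1.41) and OsPDIL1-2 (-2.29), beside 17.6% and 26.4% of all. With median scaling the family counts higher and lower were 3 and 3 against leaf, 3 and 3 against seedling, and 2 and 3 against root. With spike-in scaling they were 2 and 3, 1 and 3, and 1 and 5 in the same order.

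Other tissues brought out other family members. OsPDIL1-3 was higher in embryo than in leaf (2.42) and seedling (2.16), and it was lower in leaf and in seedling than in root (-1.78 and -1.52). OsPDIL1-5 was higher in embryo than in seedling (1.15) and lower in leaf and seedling than in root (-1.08 and -1.61). OsPDIL5-2 was called in none of the 10 comparisons, with means of 1614 in endosperm, 1200 in embryo, 1438 in seedling, 1347 in leaf and 1441 in root. OsPDIL2-1 had 2 probe sets with negative values in endosperm minus embryo: the brighter, at -0.42, was not called, and the fainter was called lower (-1.12, adjusted p = 0.0185). OsPDIL5-3 had no probe set and was not analysed here. Names in this family overlap, since the gene table gives OsPDIL2-1 also as a synonym of the OsPDIL1-4 gene and OsPDIL5-1 as one of the OsPDIL2-3 gene.

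**Figure D3:**
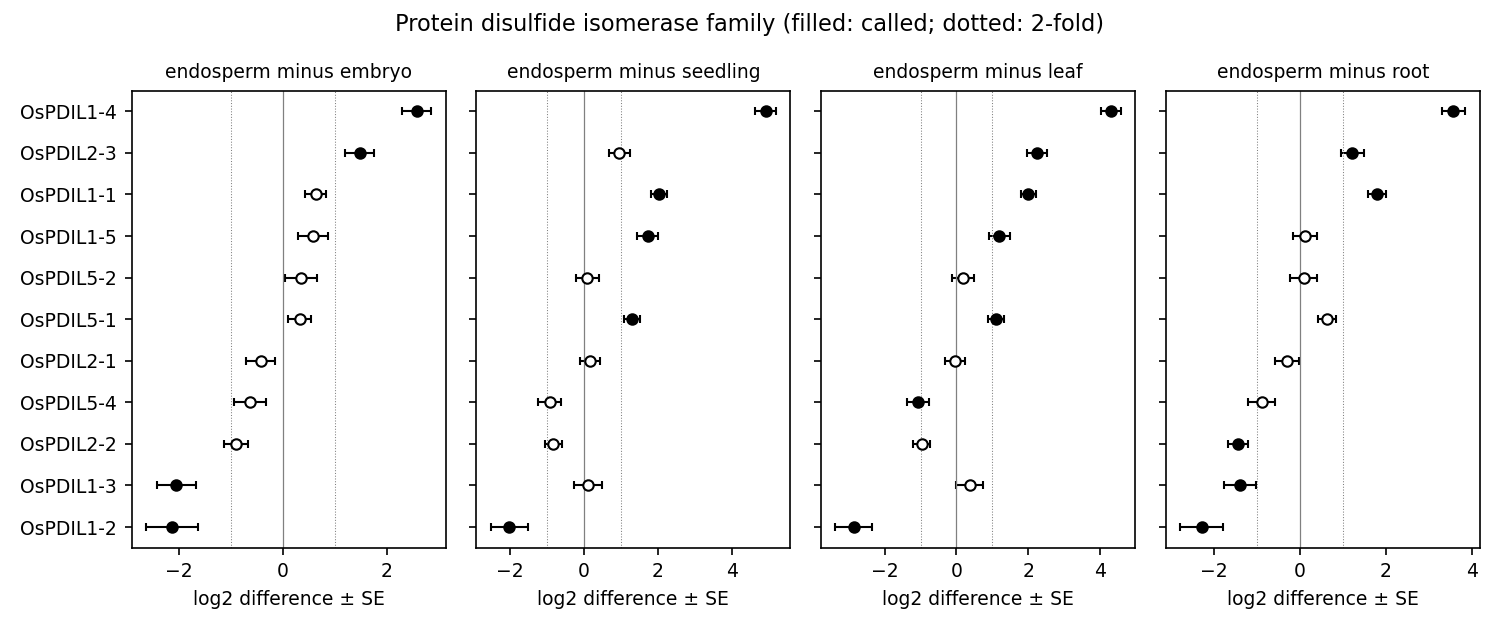
Log2 difference of endosperm from each of the 4 other tissues for the 11 family genes with a probe set, 1 point per gene and comparison with its SE as a bar. OsPDIL1-4 stands highest in every comparison and OsPDIL1-2 lies below 0 throughout. OsPDIL1-1, OsPDIL2-3, OsPDIL5-1, OsPDIL1-5 and, by a small margin, OsPDIL5-2 are above 0 in all 4 comparisons at the scaling plotted. OsPDIL2-2 and OsPDIL5-4 are below it.

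The isomerases work beside other folding factors of the endoplasmic reticulum, and these were called in both directions in endosperm. Of 14 folding and stress-sensing genes tested, 7 were higher in endosperm than in embryo, 2 were lower and 5 were not called, with a median log2 difference of 1.02, beside 16.3% higher and 20.1% lower among all probe sets. This balance depended on the scaling, with 5 higher and 3 lower under median scaling and 1 higher and 6 lower under spike-in scaling. ERDJ3B, a J-domain co-chaperone, had 8028 and 4910 in endosperm against 524 and 787 in embryo, a difference of 3.26 ± 0.36 (adjusted p = 0.000101). BIP1, the lumenal Hsp70 chaperone, had 32576.9 and 25692.8 in endosperm against 7877 and 9977 in embryo (1.70 ± 0.30, adjusted p = 0.00135). For both genes the endosperm arrays were clear of the embryo arrays, although the 2 endosperm arrays of ERDJ3B were 1.64-fold apart.

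BZIP50, whose transcript is spliced by the stress sensor IRE1, was higher in endosperm by 1.81, and the co-chaperone ERDJ3A by 1.67. The remaining genes called higher, named after their values were seen, were DER1, of the degradation pathway of the endoplasmic reticulum, BZIP60 and ERDJ2. The 2 called lower were also named after their values were seen. The calreticulin gene CRO1, a lectin chaperone, had 8764 and 5466 in endosperm against 21580.4 and 20929.4 in embryo (-1.62 ± 0.25, adjusted p = 0.000734), and the membrane-bound transcription factor gene BZIP39 was at -1.11. Genes not called included STT3-B (-0.94) and HRD1 (0.70), with BIP4 below the signal limit. The folding genes called higher and lower numbered 6 and 3 in endosperm minus leaf, 7 and 3 in endosperm minus root, and 5 and 3 in endosperm minus seedling. Of all probe sets 21.8% were higher and 30.9% lower against leaf, 17.6% and 26.4% against root, and 19.8% and 31.5% against seedling. With median scaling the folding counts were 6 and 6, 5 and 6, and 3 and 6 in the same order. With spike-in scaling they were 4 and 7, 0 and 7, and 0 and 7. BIP1 was higher in endosperm in these 3 comparisons too (2.47, 1.87 and 1.81), and IRE1, also named after its values were seen, was lower (-1.98, -1.66 and -1.97).

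Storage proteins are the main clients of folding in this tissue. Of 7 genes listed as such by symbol and tested, 5 were higher in endosperm than in embryo and 2 were not called. Their median was 1.92, beside 16.3% higher and 20.1% lower among all probe sets. With spike-in scaling 1 was higher and 1 lower. The glutelin gene GluC had 40645.9 and 30584 in endosperm against 3889 and 6075 in embryo (2.85 ± 0.38). GLUA-1 was higher by 2.08, the prolamin gene by 1.96, GLUA-3 by 1.92 and GLUA-2 by 1.31. GLUB-5 (0.89) and GLB (-0.49), listed by its symbol alone, were not called. GLB averaged 2629 in endosperm, 3687 in embryo, 2722 in seedling, 3391 in leaf and 4557 in root. It may not be a storage protein gene, and the counts given here include it. The fainter of 2 probe sets of GLUA-2 ran opposite to the one used, with means of 312 in endosperm and 481 in embryo. Against leaf, root and seedling 6 of the 7 were higher in endosperm, and 6 of the 7 were higher in embryo as well (median log2 difference 8.84, 8.48 and 8.14 for embryo). Of all probe sets 21.8%, 17.6% and 19.8% were higher in endosperm in these comparisons, and 18.3%, 15.4% and 17.7% in embryo. GluC and GLUA-1 were close to 0 in the vegetative tissues. Both are also among the endosperm markers above, so the storage counts partly repeat that check. Endosperm markers summed to 18458.5 and 23113.2 in embryo, and their part in the embryo calls was not tested. These lists were built from symbols with earlier results of these arrays known.

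**Figure D4:**
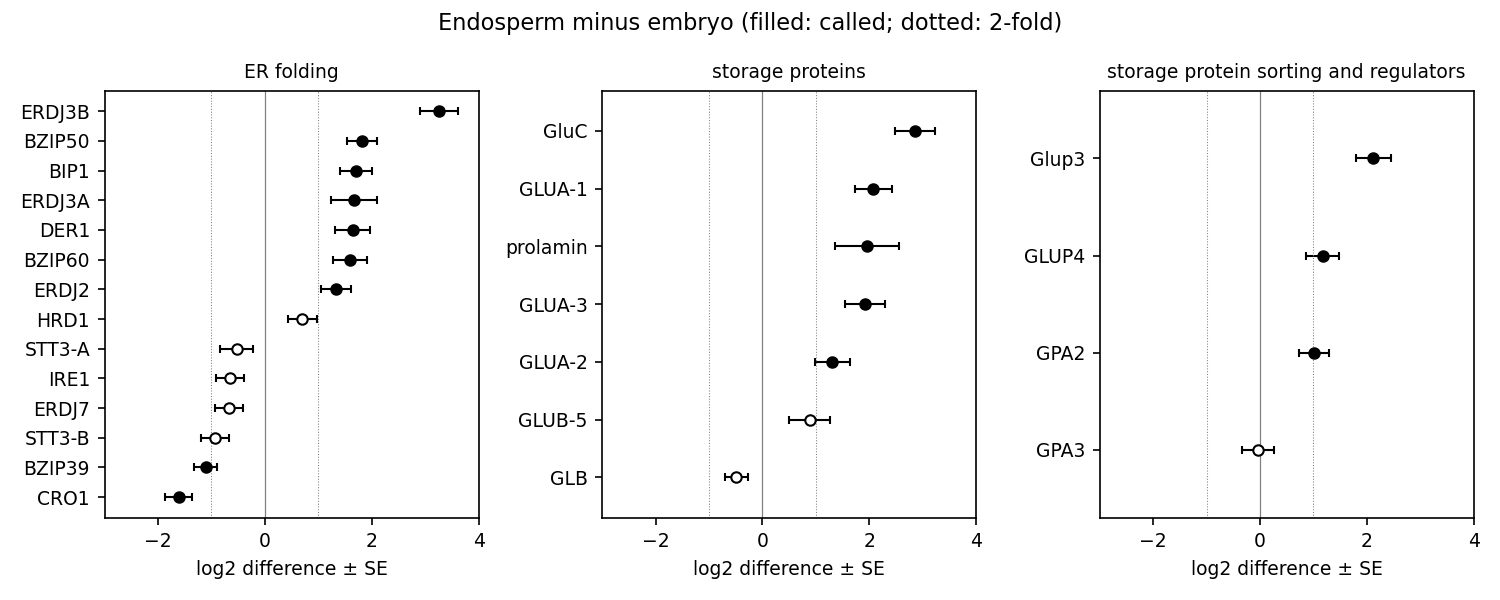
Log2 difference endosperm minus embryo, with its SE, for the folding, storage protein and sorting genes. Folding genes lie on both sides of 0, storage protein genes lie mostly above it, and sorting genes lie above it or close to it.

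Of 4 genes that sort or cleave storage protein, 3 were higher in endosperm than in embryo, where 16.3% of all probe sets were higher and 20.1% lower. None was called with spike-in scaling. Glup3, the vacuolar processing enzyme that cleaves proglutelin, was higher by 2.12 ± 0.33 (adjusted p = 0.000735). GLUP4, which encodes the small GTPase Rab5a, was higher by 1.17 (adjusted p = 0.0116), and GPA2, its exchange factor VPS9A, by 1.004 (adjusted p = 0.017), whereas GPA3 was at -0.04. The thioredoxins, small proteins that share a fold with the isomerases, were mixed. Of 14 tested, 2 were higher in endosperm than in embryo (OsTrx08 by 1.23 and OsTrx10 by 1.13), OsTrx03 was lower (-2.76) and 11 were not called, including OsTrxm5 at 1.65 ± 0.84 (adjusted p = 0.149). Their median was -0.13, and 16.3% of all probe sets were higher and 20.1% lower. With median scaling 0 were higher and 1 lower, and with spike-in scaling 0 and 2. Against seedling, 2 thioredoxins were higher in endosperm and 5 were lower, beside 19.8% higher and 31.5% lower among all probe sets.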

How the data were processed

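The values analysed are signal intensities deposited by the authors, 1 per probe set and array on a linear scale. They were made with MAS5 per the submitters' processing notes (version not stated), and aligned on each array to a 2% to 98% trimmed mean of 500, as the values themselves show. Detection calls and scanner files were not used here, and the number of arrays limits the precision.

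Signals rescaled to that trimmed mean were taken as log2(signal + 16). Tests covered the 30014 of 57381 probe sets that reached 100 on 2 or more arrays, without the 123 controls. A limma model (limma 3.58.1, R 4.3.3) with a mean per tissue was fitted with eBayes and an intensity trend, on 5 residual and 5.14 prior degrees of freedom, and was tested on simulated data. Probe sets were named through the platform's gene annotation and the RefSeq gene table. For a gene with several probe sets the one with the highest mean was used.

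Gene lists were made by symbol or synonym: the isomerase family, folding factors, storage proteins with the proteins that sort them, and thioredoxins. The named genes were the 3 isomerases, the rest of their family, from each other list up to 4 genes with the largest called difference between endosperm and embryo and up to 3 not called, every BIP, and the 5 genes nearest in profile. The members and lists were chosen with earlier results of these data known. Replicate numbers were checked for pairing: deviations of same-numbered arrays correlated between -0.108 and 0.0962 over 10 tissue pairs, so no pairing was used. Alternatives covered pseudocount, scaling, filter, trend, array weights, the replicate number as a block and the omission of single arrays.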

Additional observations from a re-analysis of the deposited data

How the results depend on the processing

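With 2 arrays per tissue, a call near 2-fold or near the threshold rests on single arrays. No difference of the 3 isomerases that was called changed sign under any alternative run. Scaling moved all probe sets together: the median log2 difference of all probe sets in endosperm minus embryo was 0.02 as reported, -0.23 under median scaling and -0.66 under spike-in scaling. OsPDIL1-1 kept 0 of its 6 calls under quantile scaling and 1 under spike-in scaling. Its quantile values were 0.90, 0.89 and 0.98 for endosperm minus leaf, root and seedling, and 0.83, 0.82 and 0.91 for embryo. Its spike-in values were 0.98, 0.77 and 0.85 for endosperm and 0.96 and 1.03 for embryo minus root and seedling. Leaving out arrays gave 0.89 to 1.43 for its embryo minus root. OsPDIL1-4 in embryo minus root was 0.98 with a pseudocount of 64, 0.97, 1.06 and 0.80 under quantile, median and spike-in scaling, and 0.68 to 1.32 without single arrays. Its leaf minus root was -1.05 to -0.41 and its seedling minus root -1.66 to -1.02 without single arrays, the second being -1.17 under spike-in scaling. OsPDIL2-3 had 5 calls, against 2 under median scaling, 1 under spike-in scaling, 3 without the trend and 3 to 6 without single arrays. Its endosperm minus embryo was 0.66 under spike-in scaling. Its endosperm minus root was 0.91, 0.99 and 0.21 under quantile, median and spike-in scaling and 0.94 to 1.51 without single arrays, and its endosperm minus seedling was 0.72 to 1.20. Its leaf minus root was -0.72 and -1.03 under median and spike-in scaling, -1.03 without the trend, and -1.32 to -0.75 without single arrays. Its seedling minus leaf was 1.04 and 1.46 under those scalings, 1.29 with no call without the filter or the trend, and 1.20 to 1.39 without single arrays. With a replicate block it was 1.29 with an adjusted p of 0.0503, against 0.0356 without, and no other call of the 3 isomerases was lost under the block. Storage protein genes called in endosperm minus embryo were 3 with a pseudocount of 1 and under quantile or median scaling, 2 under spike-in scaling and 3 to 5 without single arrays. Thioredoxins called were 1 under median scaling and 3 to 5 without single arrays. No other probe set of a member could be tried, since each has 1. The causes were not tested.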
